A study of Mus musculus with 30 samples.

Results

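The microRNA genes of this array study were 229 rows of the expression table, out of 28815 rows in all. A row, or transcript cluster, is a set of probes for 1 transcription unit, and its value is a log2 signal. The rows were chosen as all those with a single gene symbol that starts with Mir and a digit and a mean log2 signal of at least 5 over all 30 arrays. Of 296 rows with such a symbol, 67 fell under that mean and are not described. The mean signal chose the rows, so their level is not a finding, and a row low in some groups could enter only through groups in which it was high. Mir302b at 5.04, Mir204 at 5.09 and Mir99a at 5.13 lay just inside the threshold, and Mir687 at 4.95, Mir710 at 4.94 and Mir676 at 4.92 lay just outside it. In 15 of the 229 rows at least 1 of the groups had a mean under 5, and 214 rows were at 5 or above in every group. On day 0, 11 members had a mean under 5. The 229 rows held 226 symbols, among them 5 rows for host transcripts whose symbol ends in hg. A further 59 rows pair a microRNA symbol with other symbols and were not used.

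The cells were 1 clone of mouse embryonic stem cells, called NgR in the labels (genotype AINV15_Nanog_Rescue Clone), derived from Ainv15 cells that express rtTA, the doxycycline-controlled transactivator. All groups share this clone, the rtTA background and the primary mouse embryonic fibroblasts on which the cells were kept, and all began in medium with doxycycline at 1 ug/ml. The 10 groups of 3 arrays were day 0 with doxycycline; days 1, 3 and 5 after its withdrawal; and, from each of those 3 days, a further 12 h with a doxycycline pulse or 12 h without it as the time-matched control. The study compared withdrawal with day 0 and each pulse with its control. The labels do not say whether the 3 arrays of a group came from separate cultures, so the p-values measure the spread between these arrays, which may be technical.

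MicroRNAs are short RNAs that pair with messenger RNAs through their seed, the bases near their 5′ end, and lower the stability and translation of those messengers. They are cut by Drosha and then Dicer from hairpins in longer primary transcripts, and neighbouring hairpins are often carried by the same transcript. In mouse embryonic stem cells the best known are relatives of miR-290, miR-302 and miR-17, which share a similar seed and favour fast division, while let-7 and others accumulate on differentiation. No row of Mir290 to Mir295, Mir367 or Mir92-1 was among the rows described here. The let-7 genes fall outside the symbol rule and were not described either. Total RNA was labelled here, and a row for a hairpin can read primary, precursor or mature RNA. Which of these a value reflects was not tested.

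The mature sequences below belong to the rows on which the results turn, with the seed (bases 2 to 8) in capitals, taken from RefSeq on build GRCm38.p6. They are grouped by seed, to show which rows of different chromosomes make RNAs with the same targeting bases. The first 6 share the seed AAAGUGC.
mmu-miR-17-5p: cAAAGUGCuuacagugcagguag
mmu-miR-20a-5p: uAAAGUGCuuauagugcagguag
mmu-miR-106a-5p: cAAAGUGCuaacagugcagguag
mmu-miR-20b-5p: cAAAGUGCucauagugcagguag
mmu-miR-93-5p: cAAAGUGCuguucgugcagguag
mmu-miR-106b-5p: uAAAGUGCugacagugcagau
miR-17-5p lies at chr14:115043684-115043706 on the plus strand in the Mir17-92 cluster, miR-106a-5p at chrX:52742541-52742563 on the minus strand in the Mir106a-363 cluster, and miR-106b-5p at chr5:138165787-138165807 on the minus strand within Mcm7. The miR-302 arms carry the core of that seed, shifted by 1 base in miR-302b-3p and miR-302d-3p and by 2 bases in miR-302c-3p.
mmu-miR-302b-3p: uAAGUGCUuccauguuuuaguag
mmu-miR-302d-3p: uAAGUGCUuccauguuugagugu
mmu-miR-302c-3p: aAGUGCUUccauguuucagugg
They lie on chromosome 3, with miR-302b-3p at chr3:127545275-127545297 on the plus strand. The same 2 polycistrons that hold miR-17 and miR-106a also make the next arms.
mmu-miR-19a-3p: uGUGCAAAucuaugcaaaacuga
mmu-miR-19b-3p: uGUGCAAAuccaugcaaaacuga
mmu-miR-363-3p: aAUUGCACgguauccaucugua
Mir19b-1 on chromosome 14 and Mir19b-2 on chromosome X both give the mature miR-19b-3p. The miR-15 and miR-103 groups, which share the letters AGCAGCA shifted by 1 base, are next.
mmu-miR-15b-5p: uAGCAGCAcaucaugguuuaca
mmu-miR-16-5p: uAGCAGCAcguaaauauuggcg
mmu-miR-103-3p: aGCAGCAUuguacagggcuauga
miR-15b-5p lies at chr3:69009775-69009796 on the plus strand. The last 3 come from the imprinted Dlk1-Dio3 region of chromosome 12 and have 3 different seeds.
mmu-miR-377-3p: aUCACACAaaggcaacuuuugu
mmu-miR-382-5p: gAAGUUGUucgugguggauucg
mmu-miR-300-3p: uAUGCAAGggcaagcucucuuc
miR-377-3p lies at chr12:109740553-109740574 on the plus strand.

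Hairpins are short, and this limits the rows. RefSeq held a hairpin for 191 of the 226 genes behind the 229 rows, with lengths of 61 to 112 bases and a median of 85. Of these, 21 shared a run of at least 25 bases, the length of 1 probe, with another hairpin, so that their probes may not tell the copies apart. Among them are Mir19b-1 with Mir19b-2, whose hairpins were identical over 75% of their alignment, and Mir103-1 with Mir103-2, at 80.2%. Mir17 and Mir106a shared no such run, with 64.3% identity. When microRNA genes of 1 chromosome and strand with at most 10 kb between neighbours were joined, 222 of the 226 genes fell into 151 runs. Of these runs, 31 held 2 or more of the genes and 102 genes together.

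Nanog followed its label in every array. Its log2 signal was 11.01 to 11.05 on day 0, 10.17 to 10.32 on day 1, 10.48 to 10.57 on day 3 and 9.64 to 10.06 on day 5 after withdrawal. It was 11.06 to 11.11 after the day 1 pulse, against 10.27 to 10.36 in its control, 10.89 to 11.02 against 10.12 to 10.21 on day 3, and 10.70 to 11 against 10.04 to 10.09 on day 5. All 10 embryonic stem cell markers listed (with Pou5f1 among them) were measured, and their summed linear signal was 28745 to 30375 on day 5 after withdrawal, against 43173 to 45113 on day 0. Of 10 listed markers of feeder fibroblasts, the summed signal was 3640 to 4046 on day 5 after withdrawal. It was 4330 to 4470 on day 0. Vim, the strongest of the 10, weighs most in this sum, with a mean of 11.54 on day 0 and 10.95 on day 5. Whether the Vim signal came from feeder or stem cells was not tested, so the lower sum does not show less feeder signal. Single fibroblast markers differed in direction: on day 5, 5 of the 10 rose, with Col1a2 and Pdgfrb among them, and 2, Vim and Thy1, fell, with a median difference of 0.12, and on day 3, 4 rose and 2 fell. In bulk RNA, fewer cells of a type and less RNA per cell cannot be told apart, and the part of feeder cells in the values below was not tested.

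After doxycycline withdrawal the microRNA rows that passed the test were mostly higher than on day 0. The test was limma on all 23385 rows with a symbol, with a row called at a Benjamini-Hochberg adjusted p under 0.05. On day 1, 22 rows rose and 1 fell; over all rows tested, 6.51% were called, 3.49% higher and 3.02% lower. On day 3, 76 rose and 9 fell, where 33.8% of all rows were called, 19.6% higher and 14.3% lower. On day 5, 80 rose and 21 fell, where 42.5% were called, 23.8% higher and 18.8% lower. With each array centred on its median the split was 64 higher and 19 lower on day 3 and 68 higher and 34 lower on day 5. The total share of rows called, at 10.0%, 37.1% and 44.1%, was near that over all rows tested on days 3 and 5, with fewer falls. Of the rows at 5 or above in every group, 66 rose and 9 fell on day 3, and 72 rose and 21 fell on day 5. The other rises, 10 on day 3 and 8 on day 5, were in rows with a group mean under 5. These rises are not independent of the choice of rows. None of the 8 on day 5 was a Mir302 row. The median difference over the 229 rows was 0.06 on day 1, 0.18 on day 3 and 0.16 on day 5, against 0.02, 0.02 and -0.01 over all rows tested. The 8 clusters and families described below, with 60 rows, held 18 rises and 1 fall on day 1. They held 43 and 1 on day 3, and 41 and 1 on day 5. The other 169 rows held 4 and 0, 33 and 8, and 39 and 20. The 8 were chosen with earlier results of these data known, so this split is not a test. Among the 169 rows are also runs, such as Mir500 to Mir532, with 0 rises and 2 falls on day 5. Mir182 and Mir96 were not called on any of these days.

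**Figure D1:**
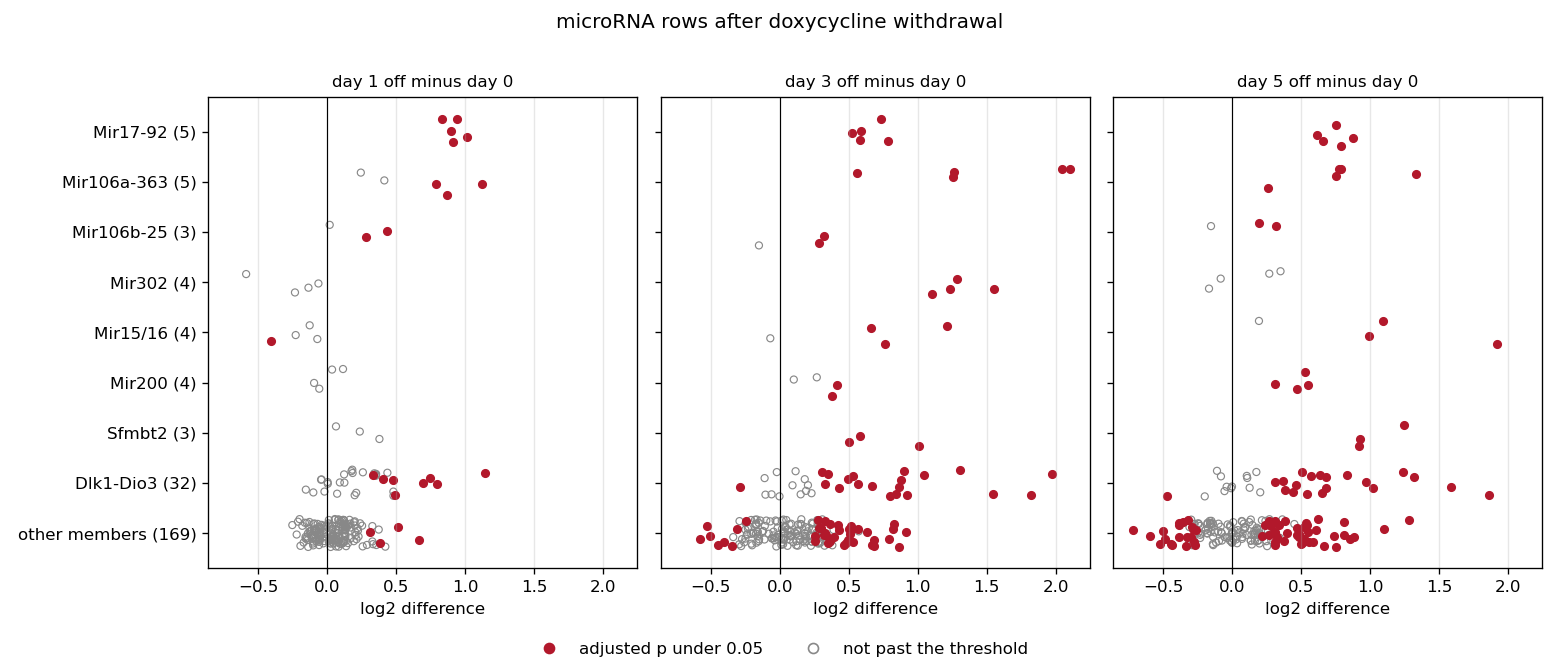
Difference in log2 signal between each day after withdrawal and day 0 for the 229 microRNA rows, 1 point a row, by cluster or family (number of rows in brackets; points are spread vertically for sight only). Filled points have an adjusted p under 0.05. All 5 Mir17-92 rows are filled on each day, the Mir302 rows only on day 3, and most of the other 169 rows lie near 0.

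The Mir17-92 cluster, a polycistron known for driving proliferation, was higher after 1 day. All 5 of its rows rose on days 1, 3 and 5, by 0.83 to 1.01, 0.52 to 0.78 and 0.61 to 0.88. Mir19b-1, one of the key oncogenic hairpins of the cluster, had log2 signals of 7.62, 7.89 and 7.37 on day 0. It had 8.58, 8.79 and 8.55 on day 1, 8.40, 8.50 and 8.19 on day 3, and 8.47, 8.46 and 8.57 on day 5. Every array after withdrawal lay above all 3 of day 0. The difference was 1.01 ± 0.12 (SE) on day 1, a 2.02-fold higher signal (limma, adjusted p = 2.46e-06). Mir17, the first hairpin of the cluster, had 7.60, 8.13 and 8.04 on day 1, against 7.15, 7.17 and 6.77 on day 0, a difference of 0.90 ± 0.12 (adjusted p = 1.12e-05, limma). These groups did not overlap either. Day 0 replicate 3 was the lowest day 0 array in all 5 rows; all 5 were still called on day 1 with any single array left out, and 3 to 5 were on day 3. The separate row for the host transcript Mir17hg gave other values: its difference was 0.09 ± 0.13 on day 1 (adjusted p = 0.82, limma) and it fell by 0.44 on day 5 (adjusted p = 0.0072, limma). Whether the difference between the host row and the hairpin rows exceeds its error was not tested.

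The paralogous Mir106a-363 cluster on the X chromosome was highest on day 3 among the days of withdrawal. Its rows rose by 0.56 to 2.10 on day 3, when all 5 passed the test, against 3 of 5 on day 1 and 5 of 5 on day 5 (3 without day 0 replicate 3 or day 5 replicate 1). Mir106a, which has the seed of miR-17, had 5.38, 5.65 and 4.97 on day 0, 6.16, 6.18 and 6.25 on day 1, 7.42, 7.65 and 7.07 on day 3, and 6.71, 6.61 and 6.69 on day 5. The 4 groups did not overlap, with day 0 lowest and day 3 highest. On day 3 its signal was 4.12-fold that of day 0, a difference of 2.04 ± 0.16 (adjusted p = 2.33e-10, limma). Mir363, which carries the seed of miR-92a and miR-25, had 7.86, 7.67 and 7.54 on day 3, against 5.64, 5.83 and 5.28 on day 0. All its day 3 arrays lay above those of day 0, with a difference of 2.10 ± 0.24 (adjusted p = 1.27e-07, limma). Mir20b and Mir19b-2 each rose by 1.26 on day 3. Mir92-2 had the smallest rise of the cluster, at 0.56 ± 0.09 on day 3. From day 3 to day 5, 4 of the 5 rows fell again, by 0.30 for Mir92-2 to 1.31 for Mir363, in a step in which 12.3% of all rows were called, 7.59% higher and 4.75% lower. Of the 229 rows, 3 rose in that step (Mir15b, Mir103-2 and Mir34a) and 9 fell. Mir19b-2 was 0.50 ± 0.19 lower on day 5 than on day 3 (adjusted p = 0.084, limma). With 1 array left out, 2 to 4 of the 5 rows were called lower in that step.

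The third relative, Mir106b-25, lies in an intron of Mcm7, a subunit of the replicative helicase, and had smaller differences. Mir93 was 0.43 ± 0.09 higher on day 1 (adjusted p = 0.0020, limma), with 7.69, 7.90 and 7.83 against 7.46, 7.26 and 7.39 on day 0. Mir106b rose by 0.28 on day 1; 1 of these 2 calls was lost without day 0 replicate 1 or day 1 replicate 2. Mir25 differed by 0.02 ± 0.09 on day 1 and by -0.15 ± 0.09 on day 3 (adjusted p = 0.19, limma). Mcm7 itself rose by 0.31 on day 3 (adjusted p = 6e-04, limma) and differed by 0.11 on day 1 (adjusted p = 0.43). Over the 6 rows with the seed AAAGUGC, which lie in these 3 clusters, 5 rose on day 1 and all 6 on days 3 and 5, with a median difference of 0.65 on day 3.

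The Mir302 cluster, a mark of primed pluripotency in mouse whose rows RefSeq places on the same strand within the noncoding gene Gm51018, was high for a limited time. Mir302a and Mir302b had day 0 means under 5, and Mir302c had a day 1 mean under 5. These rows entered through groups in which they were higher. Their rises, also those measured from day 1 below, are thus not independent of the choice of rows. On day 1 none of its 4 rows was called, with differences of -0.59 to -0.06. On day 3 all 4 rose, by 1.10 for Mir302b to 1.55 for Mir302a, and on day 5 none was called, with -0.17 to 0.35. Mir302c had 5.05, 5.26 and 4.96 on day 0, 4.87, 4.85 and 5.13 on day 1, 6.97, 6.51 and 5.64 on day 3, and 5.09, 4.95 and 4.97 on day 5. Its day 3 arrays spread over more than 1 log2 unit, but the lowest of them lay above every array of the other 3 groups. Its difference on day 3 was 1.28 ± 0.24 (adjusted p = 1.10e-04, limma), and from day 3 to day 5 it fell by 1.37 (adjusted p = 1.97e-04). Mir302a had 6.60, 6.14 and 5.21 on day 3, against 4.37, 4.61 and 4.32 on day 0, and Mir302d had 7.23, 6.68 and 6.32, against 5.34, 5.66 and 5.54. In these rows too the groups did not overlap, and day 3 replicate 3 was the lowest of its group. In Mir302b the same array, at 4.73, lay just below the highest day 0 array. Without 1 array, 3 or 4 of the rows were called on day 3, and 2 to 4 in the step to day 5.

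From day 1 to day 3, 42 of the 229 rows rose and 2 fell, where 22.9% of all rows were called, 13.2% higher and 9.77% lower; with median centring the split was 31 and 11, and with quantile normalization 39 and 11. The 4 Mir302 rows had the largest rises, at 1.42 to 1.69. They were already higher 12 h after day 1. In the day 1 control, which had 12 further h without doxycycline, all 4 rows were higher than on day 1 itself, by 0.99 to 1.26; this comparison was added after the group means had been seen, and 6.25% of all rows were called in it, 5.02% higher and 1.23% lower. Mir302d had 6.12, 6.34 and 6.33 in this control, against 5.23, 5.35 and 5.25 on day 1 (difference 0.99 ± 0.16, adjusted p = 7.26e-04, limma). Mir302c had 5.97, 6.04 and 6.42, against 4.87, 4.85 and 5.13. The groups did not overlap in either row. Mir302c had 6.63, 6.39 and 6.36 after the day 1 pulse, which overlapped the control. The pulse differed from its control by 0.31 ± 0.24 in that row (adjusted p = 0.56, limma), and no Mir302 row was called in any of the 3 pulses. Of the 229 rows, 12 rose over these 12 h and none fell (34 had an unadjusted p under 0.05): beside Mir302 they were Mir106a, Mir20b, Mir15a, Mir15b, Mir103-2, Mir301b, Mir300 and Mir135b. With 1 array left out, 2 to 4 Mir302 rows were called. Over the 12 h after day 3 limma called none of the 229 rows, with 18 at an unadjusted p under 0.05 and 5 called with array weights; 1.69% of all rows were called, 1.29% higher and 0.402% lower. Over the 12 h after day 5, Mir455, Mir219a-2, Mir216a and a Mir99ahg row fell, by 0.36 to 0.50, and none rose, where 3.31% of all rows were called, 2.32% higher and 0.984% lower. Median centring gave 1 higher and 2 lower there.

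**Figure D2:**
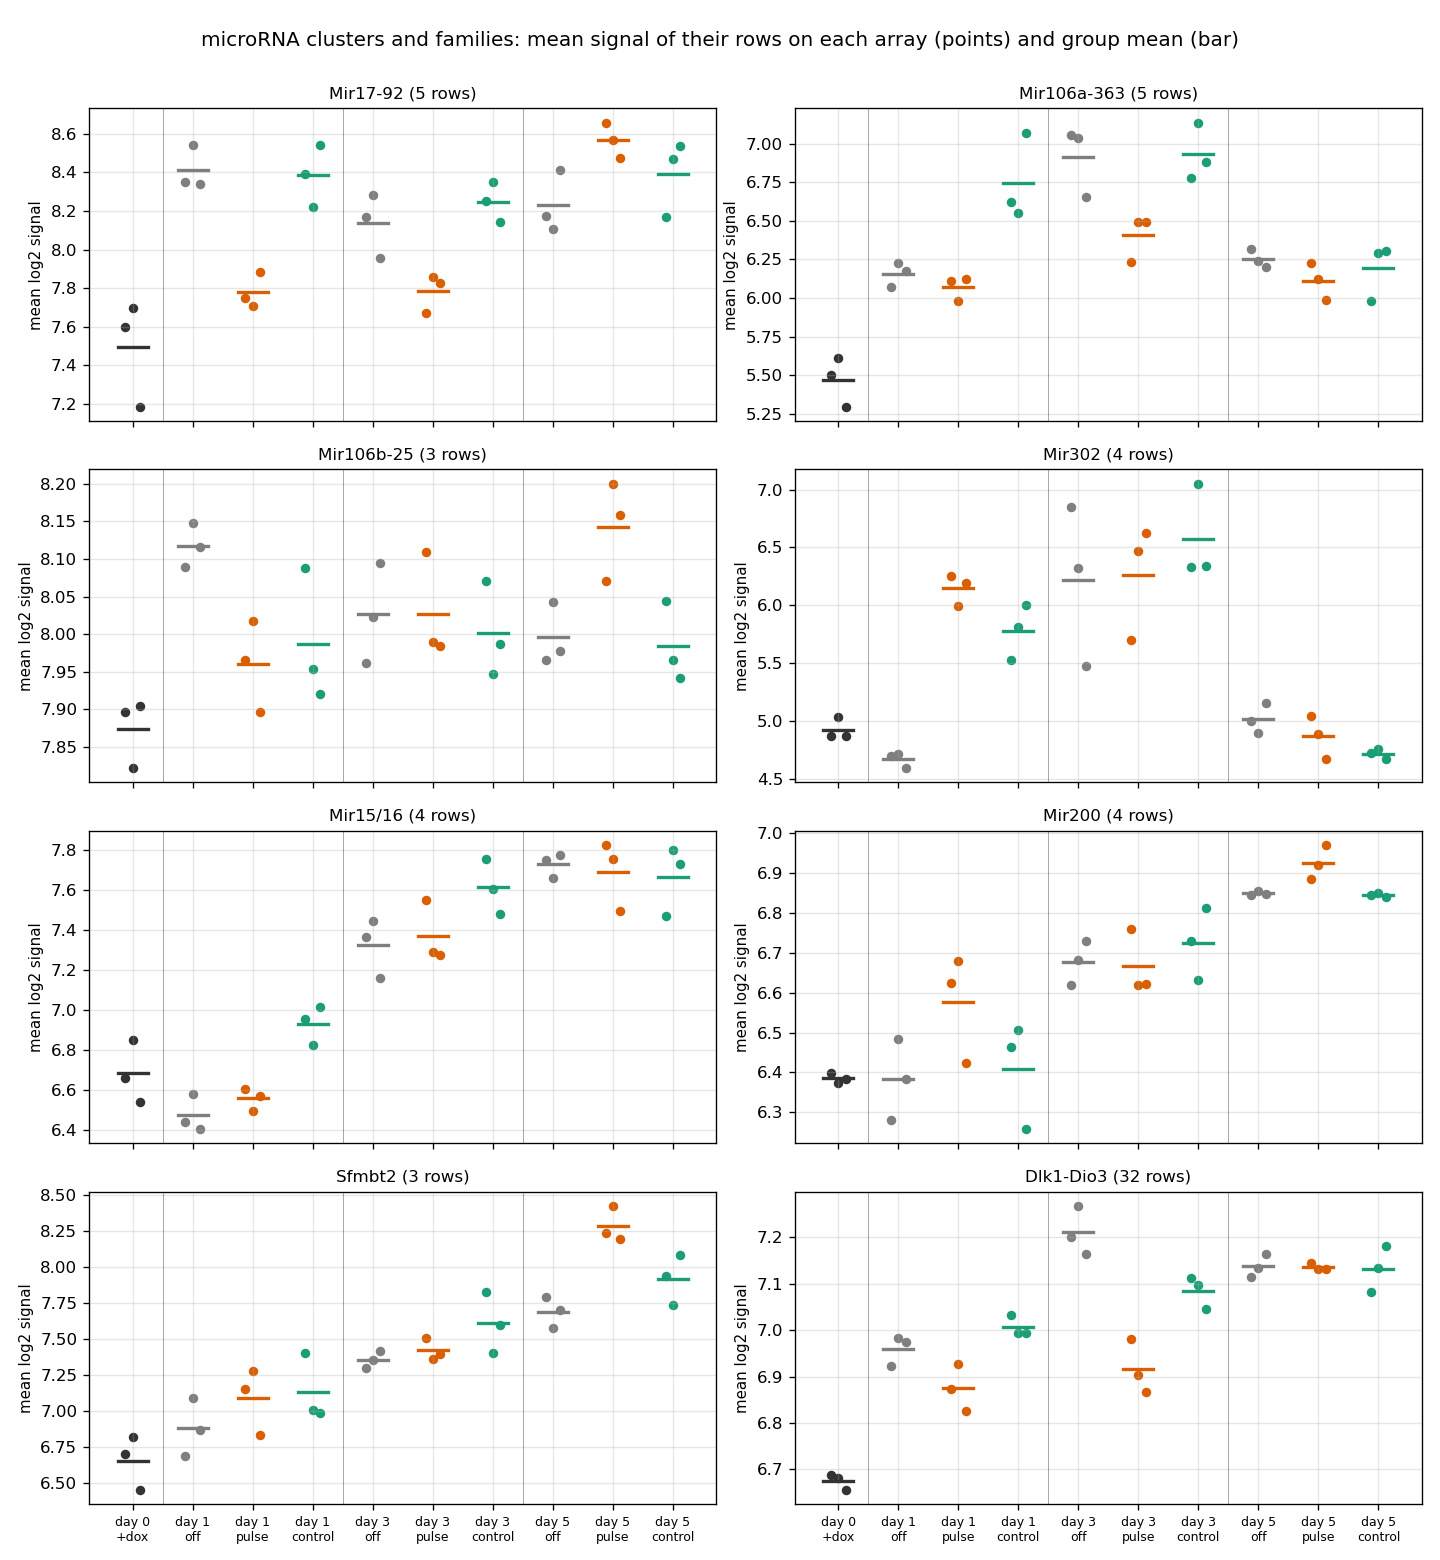
Mean log2 signal over the rows of 8 microRNA clusters and families on each of the 30 arrays (points) and its group mean (bars), for day 0 with doxycycline (black) and, on days 1, 3 and 5, withdrawal (grey, "off"), the 12 h pulse (orange) and the 12 h control (green). Each panel has its own scale. Mir302 is high from the day 1 pulse and control to day 3 and low again on day 5, while Mir15/16, Mir200 and Sfmbt2 are highest on day 5.

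The Mir15/16 family, whose products lower cyclins and Bcl2, changed later. On day 1 only Mir15a was called, and it fell by 0.41, a call that was lost without day 0 replicate 2, day 1 replicate 1 or day 1 replicate 3 (limma, adjusted p = 0.169, 0.196 and 0.0668) and with only the groups compared (0.0742). On day 3 and on day 5, 3 of the 4 rows rose. Mir15b, in an intron of the condensin subunit gene Smc4, had 5.36, 5.91 and 5.22 on day 0, 5.57, 5.65 and 5.05 on day 1, 6.94, 6.90 and 6.27 on day 3, and 7.62, 7.29 and 7.33 on day 5. Days 3 and 5 lay above all arrays of days 0 and 1, which overlapped each other. Its difference on day 5 was 1.92 ± 0.22, a 3.78-fold higher signal (adjusted p = 4.92e-08, limma). Its neighbour Mir16-2 rose by 0.99 ± 0.17 on day 5, and Smc4 rose by 0.38 on day 3. The second pair showed unlike rows, with 8.85, 8.95 and 9.02 for Mir15a on day 5, against 7.77, 8.03 and 7.74 on day 0. For Mir16-1, which lies beside it in the same run, the values were 7.11, 7.09 and 7.39 on day 5, against 7.06, 7.02 and 6.94. Mir15a rose by 1.09 ± 0.11 (adjusted p = 1.2e-08, limma), and Mir16-1 differed by 0.19 ± 0.10 (adjusted p = 0.14). Mir103-2, of the related miR-103 group, which acts on insulin signalling and lies within the pantothenate kinase gene Pank2, rose by 1.28 ± 0.11 on day 5 (adjusted p = 1.69e-10, limma). Its arrays had 7.29, 7.41 and 7.36 on day 5, against 6.01, 6.20 and 6.0 on day 0. Pank2 rose by 0.61. The near-copy Mir103-1 within Pank3 differed by 0.20 ± 0.12 (adjusted p = 0.22), although Pank3 rose by 0.57 on day 5.

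The Dlk1-Dio3 region held 32 of the rows in 3 runs. It is imprinted, and its microRNAs come from long noncoding transcripts of the maternal chromosome that include Meg3 and Rian; in mouse induced pluripotent cells, silencing of this region is known to go with poor developmental potential. On day 1, 8 of the 32 rows rose and none fell. That count was 4 without day 0 replicate 3 and 4 to 9 with any 1 array left out, 12 in a fit of only the groups compared, 15 with the interquartile range of each array as a covariate and 16 with array weights. On day 3 and on day 5, 19 rose and 1, Mir666, fell. The limit given above for rows with a group mean under 5 holds for any such row here as well. Within the region the rows were unequal: the run of 24 rows from Mir411 to Mir412 had 16 rises and a median difference of 0.62 on day 3, whereas the run of 6 from Mir673 to Mir127 had 2 rises and a median of 0.14. The difference between the runs was not tested. Mir377 had 5.12, 5.49 and 4.61 on day 0, 6.0, 6.54 and 6.11 on day 1, 7.23, 7.32 and 6.60 on day 3, and 6.21, 6.37 and 6.60 on day 5. All arrays after withdrawal lay above those of day 0, and its difference on day 3 was 1.98 ± 0.22, or 3.94-fold (adjusted p = 9.46e-08, limma). Mir300 kept its level to the end, with 7.74, 7.90 and 7.88 on day 5, against 6.04, 6.25 and 5.63 on day 0 (difference 1.86 ± 0.18, adjusted p = 2.3e-09, limma). Mir382 had 7.72, 7.58 and 7.82, against 5.96, 6.20 and 6.20, and rose by 1.58 ± 0.15. Neither row overlapped between day 5 and day 0. Mir380, a repressor of p53, rose by 1.30 on day 3. At the low end, Mir431 differed by -0.02 ± 0.10 on day 3, and Mir666 fell by 0.29 on day 3 and by 0.47 on day 5. The noncoding genes Meg3 and Rian were higher as well. Meg3 rose by 1.17 and Rian by 1.51 on day 3 (adjusted p = 5.2e-11 and 1.44e-10, limma). Rian had 8.87, 8.75 and 8.70 on day 3, against 7.20, 7.44 and 7.12 on day 0. Of the microRNA rows, RefSeq placed only Mir341 and Mir370 within Rian. These differed by -0.002 and 0.35 on day 3, and 1 was called. Mir377 and Mir541 lie within Mirg, which was not measured.

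**Figure D3:**
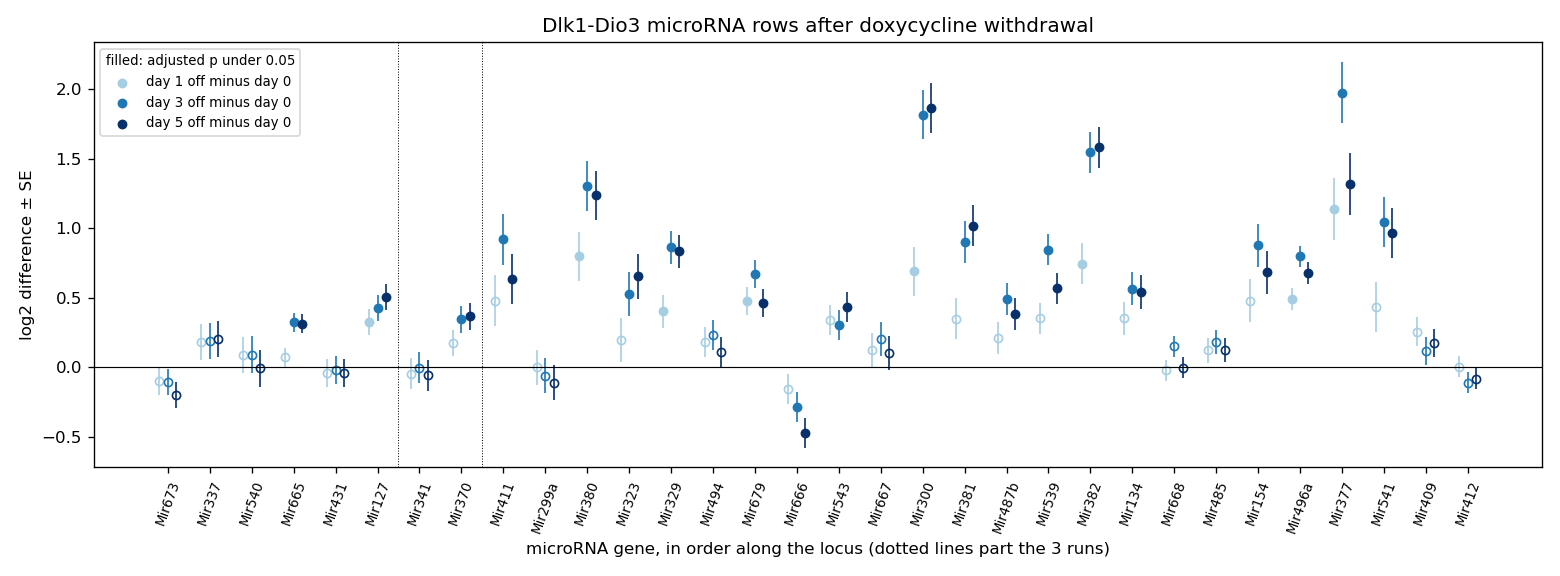
Difference in log2 signal (± SE from limma, 3 arrays a group) between days 1, 3 and 5 after withdrawal and day 0 for the 32 microRNA rows of the Dlk1-Dio3 region, in gene order. Filled points have an adjusted p under 0.05. Rises of over 1 at Mir300, Mir380, Mir382, Mir377 and Mir541 stand beside rows near 0 such as Mir341, Mir668 and Mir412, and Mir666 lies below 0.

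Further clusters rose by day 5 with smaller steps. The 3 rows of the Sfmbt2 intron cluster, a large repeat-like cluster of the mouse placenta and stem cells, rose by 0.92 to 1.25 on day 5; Mir297b had 8.17, 7.81 and 8.06, against 6.71, 6.99 and 6.60 on day 0. Sfmbt2, a Polycomb-related gene, rose by 0.61. This cluster is repetitive and no hairpin was at hand for its 3 rows, so how far their probes tell copies apart was not tested. The 4 rows of the Mir200 family, which keeps epithelial state by lowering Zeb1 and Zeb2, rose by 0.31 for Mir200a to 0.55 for Mir141 on day 5, after 2 of 4 on day 3; Mir141 had 6.11, 6.02 and 6.07 on day 5, against 5.48, 5.41 and 5.65. Neither Zeb1 nor Zeb2 was called on day 5. The miR-130 seed group, Mir130a, Mir130b and Mir301, had 3 of 3 rises on days 3 and 5, with Mir130a at 1.10 ± 0.18 on day 5 (adjusted p = 1.59e-05, limma). Its arrays had 6.35, 6.37 and 6.46 on day 5, against 5.34, 5.07 and 5.48 on day 0. Mir301b, beside Mir130b, rose by 0.88, and Mir34a, a target of p53, by 0.75. These groups were separate on day 5 in all of Mir130a, Mir141, Mir297b and Mir34a.

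The rows that fell changed less. On day 5 the largest falls were those of Mir129-1, by 0.72 (adjusted p = 0.0114, limma), Mir199b, by 0.60, Mir615, which lies among the Hox genes, by 0.52, and Mir6516, by 0.50. Mir129-1 had 8.82, 8.69 and 8.77 on day 5, against 9.54, 9.13 and 9.78 on day 0. Its groups were separate, although its day 0 arrays spread widely, and its hairpin shares a 25-base run with Mir129-2. Mir326, Mir92b, Mir149 and Mir9-3 fell by 0.39 to 0.49.

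Hosts were compared with the hairpins inside them. A protein-coding or noncoding gene on the same strand surrounded 98 of the microRNA genes, and 58 of these 76 hosts were measured, which gave 71 pairs. The search did not return Smc4, Sfmbt2 or Mir17hg as hosts, so pairs with them described above are not among the 71. On day 5, 21 of the 71 paired microRNA rows rose; their hosts rose in 6 pairs, fell in 5 and were not called in 10. Among the 47 pairs whose microRNA was not called, 17 hosts rose and 9 fell. Over all rows tested 23.8% were higher and 18.8% lower on that day. Igf2, a fetal growth factor, was 3.28 higher on day 5 while the row of Mir483 inside it was not called, and the same held for the coatomer gene Copz2, at 2.40, and Mir152. In the other direction, Mir107 rose by 0.48 on day 5 and its host Pank1 fell by 0.45.

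The machinery of microRNAs was read from a list of 19 genes, of which 18 were measured. On day 3, 8 of the 18 rose and 2 fell, and on day 5, 7 rose and 4 fell, with medians of 0.19 and 0.11. Over all rows tested 33.8% were called on day 3, 19.6% higher and 14.3% lower, and 42.5% on day 5, 23.8% higher and 18.8% lower, which is also the background of the next lists. Dicer1, which cuts hairpins to mature length, rose by 0.70 ± 0.07 on day 5 (adjusted p = 1.5e-08, limma), and its partner Tarbp2 fell by 0.71. Ran, which drives nuclear export of hairpins, fell by 0.59. The Argonaute genes Ago2, Ago3 and Ago4, which bind mature microRNAs, rose by 0.36 to 0.45. Ago1 had a mean of 8.88 on day 5, against 8.74 on day 0. Tnrc6a, a silencing partner of Argonaute, rose by 0.59, whereas its relative Tnrc6c had 8.14 on day 5 against 8.26 on day 0. Drosha and Dgcr8, the nuclear cutting complex, differed by -0.02 and -0.05 and were not called. Of 9 genes that control or answer to let-7, 5 rose and 2 fell on day 5. Lin28b and the uridylyltransferases Tut4 and Tut7, which can block let-7 maturation, rose by 0.70 to 0.81, and Mycn fell by 1.31. The other fall was that of Igf2bp1, with a mean of 10.812 on day 5, against 11.325 on day 0. Lin28a had 10.032 on day 5, against 10.099 on day 0. Of 10 known targets of the miR-290, miR-302 and miR-200 groups, 9 were measured, 4 rose on day 3 and 5 rose on day 5, with Lats2, a kinase of the Hippo pathway and a miR-302 target, at 0.68 on day 5.

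After a doxycycline pulse of 12 h from day 1, members of the Mir17-92 and Mir106a-363 clusters were lower than in the control. In all, 12 rows fell and none rose (31 had an unadjusted p under 0.05); over all rows tested 3.75% of rows were called, 0.547% higher and 3.2% lower. They were the 5 rows of Mir17-92, the 3 rows Mir106a, Mir20b and Mir19b-2 of Mir106a-363, Mir15b, Mir301b, and Mir300 and Mir382 of Dlk1-Dio3. Mir106a had 5.90, 6.04 and 6.33 after the pulse, against 7.20, 6.99 and 7.38 in the control, a difference of -1.10 ± 0.16, or a 2.14-fold lower signal (adjusted p = 2.17e-04, limma). Mir15b had 5.27, 5.01 and 5.09, against 6.37, 6.14 and 6.56 (difference -1.23 ± 0.22, adjusted p = 0.0017). Mir382 had 6.16, 6.63 and 6.67, against 7.34, 7.19 and 7.44 (difference -0.83 ± 0.15, adjusted p = 0.0016). Pulse and control did not overlap in any of these 3 rows. Mir19a had 7.31, 7.26 and 7.51, against 8.09, 7.92 and 8.23, with a difference of -0.72 ± 0.17 (adjusted p = 0.0155, limma). The other Mir17-92 rows fell by 0.50 for Mir17 to 0.64 for Mir20a, and Mir17hg differed by 0.14 ± 0.13 (adjusted p = 0.64). Meg3 fell by 0.34 and Rian by 0.51 in the same comparison. Leaving out day 1 control replicate 3 or day 1 pulse replicate 2 brought the calls to 6 of the 229 rows and those in Mir17-92 to 1 of 5, while Mir106a, Mir20b, Mir15b and Mir382 were called with any single array left out.

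The later pulses gave other results. On day 3 no row was called by limma after the pulse, where 0.0385% of all rows were, 0.00428% higher and 0.0342% lower, although 40 of the 229 had an unadjusted p under 0.05 and 2 were called with trended, robust variances. The Mir17-92 rows differed by -0.33 to -0.57 and Mir106a by -0.82 ± 0.16 (adjusted p = 0.055, limma), with 6.40, 6.65 and 6.47 after the pulse against 7.22, 7.61 and 7.16. On day 5 the Mir17-92 rows differed by 0.08 to 0.28 and the Mir106a-363 rows by -0.37 to 0.22, and none was called. In the mean of the 3 pulses 26 rows rose and 19 fell, where 20.8% of all rows were called, 6.8% higher and 14% lower; Mir17-92 had 4 falls, Mir106a-363 also 4, and Dlk1-Dio3 had 8 falls and 1 rise. With each array centred on its median that split was 35 higher and 19 lower, and with quantile normalization 13 higher and 22 lower. With the interquartile range of each array as a covariate, only Mir106a and Mir382 remained called in this mean.

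**Figure D4:**
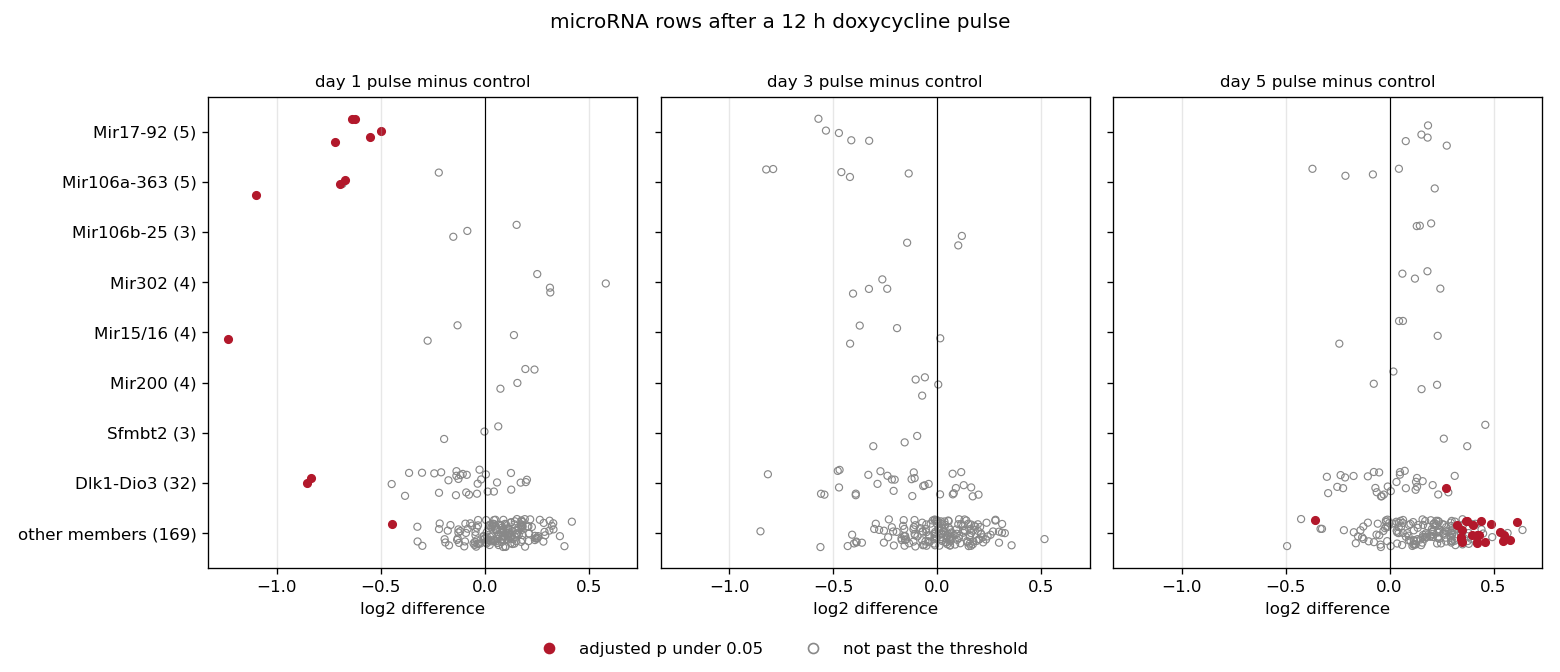
Difference in log2 signal between the 12 h doxycycline pulse and its time-matched control on days 1, 3 and 5 for the 229 microRNA rows, 1 point a row, by cluster or family (number of rows in brackets; points are spread vertically for sight only). Filled points have an adjusted p under 0.05. The 12 filled points on day 1 lie below 0, no point is filled on day 3, and all but 1 of the filled points on day 5 lie above 0 and mostly among the other members.

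After the day 5 pulse, rows outside the clusters were higher than in the control. In all, 22 rows rose and 1, Mir692-1, fell, where 12.2% of all rows were called, 5.13% higher and 7.1% lower. With quantile normalization the split was 11 higher and 3 lower. Of the 22 rises 21 lay outside the 8 clusters and families. Mir222, which with Mir221 lowers the cell cycle inhibitor p27, had 6.15, 6.56 and 6.22 after the pulse, against 5.99, 5.59 and 5.51 in the control, a difference of 0.61 ± 0.12 (adjusted p = 0.0020, limma). Its control replicate 1 was the highest of the 3, and the groups did not overlap. Mir221 rose by 0.42 and Mir34b by 0.58. The arrays of these groups differed in spread: the interquartile range over all tested rows was 2.71, 2.46 and 2.44 in the day 5 pulse, against 2.53, 2.95 and 2.93 in the control, and the control replicates 2 and 3 were the widest of the 30 arrays. The mean of the 22 rows was 6.84, 7.02 and 7.03 in the pulse arrays, against 6.78, 6.42 and 6.40 in the control arrays. Without control replicate 2 the calls were 2, without control replicate 3 they were 3, and without control replicate 1 they were 80; without pulse replicates 2 or 3 they were 4 and 3, and without pulse replicate 1 they were 48. With the interquartile range as a covariate 2 rows were called, and with the fit limited to these groups none was.

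**Figure D5:**
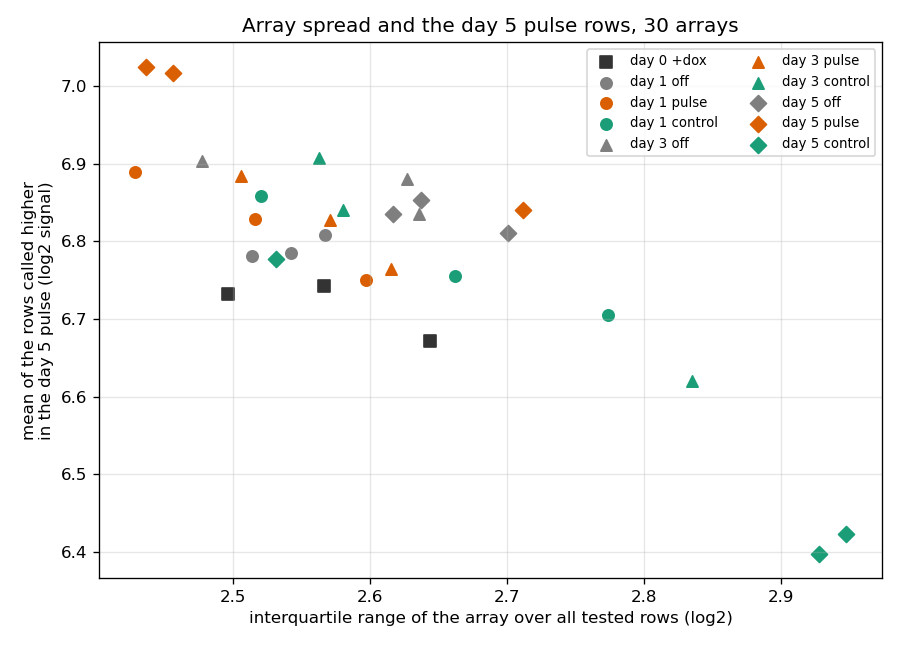
Mean log2 signal of the 22 microRNA rows called higher in the day 5 pulse, against the interquartile range of each array over all tested rows, for 30 arrays. Colour gives the treatment and shape the day; the rows were chosen by the day 5 pulse, so the height of its points is not a finding. Day 5 control replicates 2 and 3 (green diamonds, lower right) have the widest range and the lowest mean, and day 5 pulse replicates 2 and 3 (orange diamonds, upper left) have a narrow range and the highest mean.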

How the data were processed

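Total RNA of 1 mouse embryonic stem cell clone was measured on 30 Mouse Gene 1.0 ST arrays from Affymetrix. Per the submitters' processing notes, the authors used RMA of Expression Console, so each deposited value is a log2 signal. RMA corrects background, equalizes the arrays and summarizes probes. Versions, annotation release and genome build are not given in the sources used here. Arrays have no read depth, and 3 arrays a group limit the precision. Rows were named through GEO's platform annotation. Of 28815 rows, 21780 had 1 symbol, 1605 several and 5430 none; the 23385 with a symbol were fitted together with limma 3.58.1 in R 4.3.3, with 1 mean per group and p-values adjusted over all of them. Differences are first minus second group on the log2 scale. The script was tested on simulated data. Clusters, hosts and sequences came from RefSeq tables of GRCm38.p6, with hairpins aligned in Biopython 1.88. At a gap of 50 kb in place of 10 kb there were 145 runs, 35 with 2 or more of the microRNA genes. No 2 replicates held identical values. Rows named in the text are those of the listed clusters and families, up to 8 called rows of largest change in each direction per comparison, hosts, and listed genes; Mir16-1, Mir103-1, Mir107, Mir130b, Mir152, Mir301 and Mir483 were picked after their values were seen. The members and lists were chosen with earlier results of these data known. Alternatives were other variance models, array weights, centring, quantile normalization, filters, the replicate number as a block, array spread as a covariate, and leaving out each array.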

Additional observations from a re-analysis of the deposited data

Results flagged for a closer look

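Mir19b-1 was the 1 microRNA row whose pulse effect differed between days in the test of that difference (limma F test over the 3 pulses, adjusted p = 0.0498; 0.308% of all rows were called). It was not called with median centring (adjusted p = 0.0838), with the replicate block (0.0677), with only the groups compared (0.127) or with rows without a symbol included (0.0534). It was called in the other alternatives that kept all arrays, from 0.00161 with the interquartile range as a covariate to 0.0226 without the lowest 40% of rows by signal. With 1 array left out the adjusted p was 0.027 to 0.163, and the call was kept only without day 1 control replicate 2 (0.027) or replicate 3 (0.0286). The pulse effect was -0.55 on day 1, -0.57 on day 3 and 0.18 on day 5. The row had 8.07, 7.88 and 8.05 after the day 1 pulse, against 8.57, 8.30 and 8.79 in its control, and 8.88, 8.88 and 8.73 after the day 5 pulse, against 8.41, 8.69 and 8.84. Its hairpin shares a 25-base run with Mir19b-2.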

How the results depend on the processing

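Among the rows checked for direction, no called row reversed under any alternative. Checked were the rows of the 8 clusters and families and, per comparison, up to 8 called rows of largest change in each direction. The test of the difference between pulses has no direction and was not part of this check. With array weights the numbers of rows called were 49, 126 and 129 on days 1, 3 and 5 after withdrawal, 78 and 28 in the steps to day 3 and to day 5, 34, 32 and 107 after the pulses of days 1, 3 and 5, 118 in their mean, 86 in the difference between pulses, and 33, 5 and 53 over the further 12 h after days 1, 3 and 5. With each array's interquartile range entered as covariate the calls were 35 on day 1, 67 in the step to day 3, 2 in each of the day 3 pulse, the day 5 pulse and the mean pulse, and 13 in the difference between pulses. Without the lowest 40% of rows by signal, which left 94 of the 229 rows, they were 40 and 46 on days 3 and 5, 12 and 3 in the steps, 1 and 9 after the day 3 and day 5 pulses, 25 in their mean, 2 in the difference between pulses, and 7 and 1 over the further 12 h after days 1 and 5. The rows left out by that filter were not tested under it, among them the low-signal rows of Mir302, Mir19b-2 and Mir20b. Fitting only the groups compared gave 0 for the day 5 pulse, for the difference between pulses and for the 12 h after day 5. Quantile normalization gave 14 for the day 5 pulse, 7 for the difference between pulses and 2 for the 12 h after day 5; median centring gave 0 for the difference between pulses, and in the step to day 3 it gave 31 higher and 11 lower, against 42 and 2. Trended, robust variances gave 2 for the day 3 pulse and 3 for the difference between pulses. Including rows without a symbol gave 0 for that difference and 2 for the 12 h after day 5, and a mean of at least 6 gave 29 in the step to day 3. The replicate block gave 1 call for the day 3 pulse, 0 for the difference between pulses and 2 for the 12 h after day 5; same-numbered arrays correlated above 0.1 in 10 of 33 pairs, so the numbers were not taken to pair them, and the cause was not tested. Leaving out 1 array gave 15 to 25, 63 to 88 and 75 to 99 on days 1, 3 and 5, 24 to 51 and 8 to 10 in the steps, 6 to 12, 0 to 0 and 2 to 80 after the pulses, 22 to 103 in their mean, 0 to 10 in the difference between pulses, and 8 to 12, 0 to 1 and 0 to 43 over the further 12 h. For the mean pulse, counts of 22, 103, 23, 25, 71 and 28 came without day 3 control replicate 2, day 5 control replicates 1, 2 and 3, and day 5 pulse replicates 1 and 3. Outside the pulses, the arrays that moved a count by over 1.5 times were day 0 replicate 3 (15 on day 1), day 1 replicate 1 and day 3 replicate 2 (25 and 24 in the step to day 3), and, for the 12 h after day 5, day 5 replicates 2 and 3 and all 3 control arrays (0, 0, 43, 2 and 1).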
